A study of Mus musculus with 2 samples.

Results

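Granins are proteins of the dense-core secretory granules of pancreatic islet cells. Their genes were followed here with those of other secretory pathway proteins and of a cytosolic calcium sensor. The 9 genes were Chga, Chgb, Scg2, Scg3, Vgf, Ptprn, Ptprn2, Resp18 and Scgn. Members were taken as every probe set whose platform gene symbol was on that list. Of the 9 genes, 8 were found, each with 1 probe set, among 12393 genes with 1 symbol. Vgf matched no probe set and was not analysed here, and no probe set with several symbols held a member. Islets of PERK wild-type mice (1 array, mixed strains and mixed sexes) were compared with islets of PERK knockout mice (1 array, with no strain or sex in the labels), both at 2 days after birth and both isolated by digestion with collagenase P. Eif2ak3 encodes PERK, an ER (endoplasmic reticulum) membrane kinase that slows translation when unfolded protein accumulates there, and the design asks how its loss alters transcripts in neonatal islets. The labels do not say which exons or tissues the deletion covers, or whether pups were pooled.

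Granins are acidic, calcium-binding soluble proteins that condense in the trans-Golgi network, help to sort peptide hormones into granules and are themselves cut into peptides. The granule membrane carries Ptprn (IA-2, also called ICA512) and Ptprn2 (IA-2 beta, also called phogrin), receptor-type tyrosine phosphatase relatives without normal phosphatase activity and autoantigens of type 1 diabetes. The product of Resp18 is a luminal protein of neuroendocrine cells that resembles the luminal part of Ptprn, and secretagogin, the product of Scgn, is a cytosolic EF-hand calcium sensor of endocrine cells. The label of the group, granins and secretory granule membrane proteins, therefore fits Ptprn and Ptprn2 as membrane proteins but not Resp18 or Scgn.

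Every value is the signal of 1 array, in arbitrary units of intensity, and a ratio is the knockout signal over the wild-type signal on the log2 scale. There were no replicates, so no p-value was computed and no ratio has a replicate check. The only measure of error is how far 2 probe sets of a gene disagreed. Its SD per probe set was 0.26 over 2597 genes, 0.19 in the 649 brightest of them (mean signal of at least 346.2) and 0.13 over the 117 genes with both probe sets above 1000, a limit set after the values were seen. This error leaves out differences between animals, litters and RNA preparations. The floor was 39.8, the 40th percentile of signals, and lower signals were raised to it, and a gene above it on both arrays is called measured, as 8133 genes were. The median log2 ratio of those genes was 0.03. Eif2ak3 went from 117.7 to 58.7 between the wild-type and the knockout array.

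The 4 granin transcripts measured all had slightly lower signals in the knockout library, by similar amounts (log2 ratios of -0.23 to -0.14). Resp18 was 1.38-fold higher and Ptprn was 1.36-fold lower, the widest ratios of the group, in opposite directions. Scgn, Ptprn2 and the 4 granins each differed by less than the 0.26 SD per probe set over all genes. All 8 members found were above the floor on both arrays. None of the 8 was 2-fold apart, a limit that 1.17% of measured genes passed (0.516% higher and 0.652% lower in the knockout), and none was 1.5-fold apart, a limit that 7.14% passed. With 8 genes, a count of 0 is near both background shares and is not a result about these genes. A log2 ratio below 0 was found for 5 of the 8 members, against 45.1% of all measured genes and 57.0% of the brightest 10%. All members but Ptprn and Ptprn2 were among those brightest genes. With 8 genes this count too is near the background share. The median of the members was -0.16 and their mean was -0.07.

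**Figure D1:**
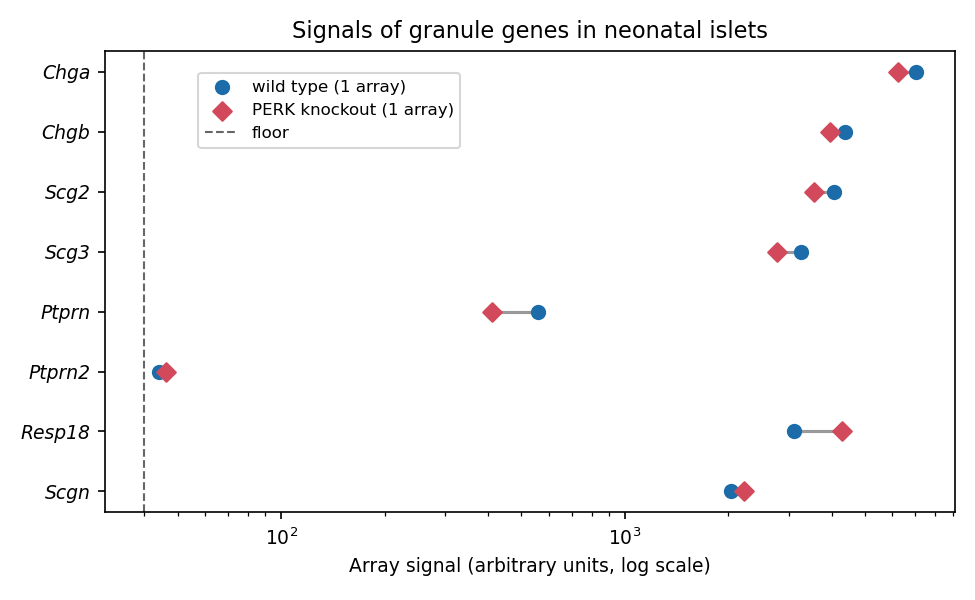
Signal of each granule gene on the wild-type array (circles) and the PERK knockout array (diamonds), on a log scale in arbitrary units, with the floor of 39.8 as a dashed line and 1 array per genotype. The granins and Ptprn sit to the left of their wild-type signal in the knockout, Resp18 sits to the right (3100.9 to 4266.4), and Ptprn2 lies just above the floor.

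Chga encodes chromogranin A, the source of vasostatin and pancreastatin. Its probe set, 1418149_at, went from 7032.5 in wild-type islets to 6229.1 in knockout islets, a log2 ratio of -0.18. These signals were 86.5% and 75.6% of the brightest signal on their array, a range in which a difference can be compressed. Chgb encodes chromogranin B, the other major granin of islet granules. Its probe set, 1415885_at, went from 4354.8 to 3950.7, a log2 ratio of -0.14 and the smallest difference among the granins.

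Scg2 encodes secretogranin II, the precursor of secretoneurin. Its probe set, 1450708_at, went from 4051.2 to 3555.8, a log2 ratio of -0.19. Scg3 encodes secretogranin III, which binds cholesterol-rich granule membrane and holds chromogranin A there. Its probe set, 1448628_at, went from 3250.1 to 2777.3, a log2 ratio of -0.23 and the largest difference among the granins.

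The knockout signals of the granins were thus 9.28% to 14.5% below the wild-type signals (1.10-fold to 1.17-fold), with a median log2 ratio of -0.18. The 4 ratios lay within 0.09 of each other on the log2 scale. This is less than the 0.13 SD per probe set of genes above 1000, so whether the 4 amounts truly were alike cannot be told. All 4 ratios were beyond the 0.13 SD per probe set of genes above 1000, the granins' own range of signal, only that of Scg3 was beyond the 0.19 of the 649 brightest, and none was beyond the 0.26 over all genes. Small ratios of this size were common: 42.2% of measured genes lay further from 0 than Scg3 and 60.9% lay further than Chgb. Among the brightest 10% of measured genes (814 genes, mean signal of at least 705.1) the median log2 ratio was -0.04, 57.0% of ratios were below 0, and the 5th and 95th percentiles were -0.42 and 0.34. All 4 granins lay between those percentiles. Within the bulk islets, fewer cells of a type and less RNA per cell cannot be told apart.

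**Figure D2:**
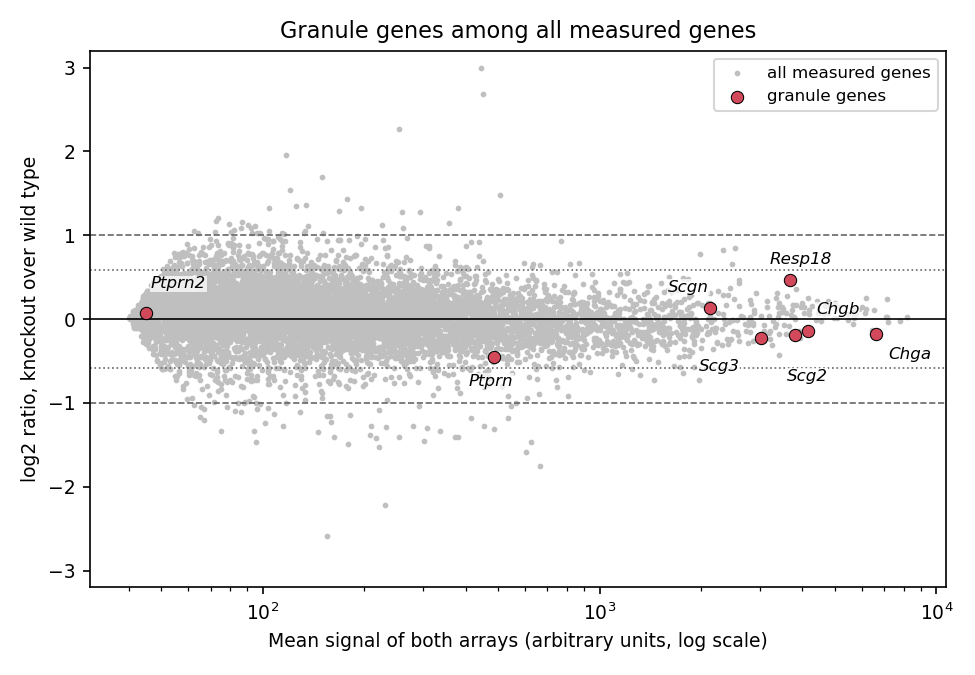
The log2 ratio of knockout over wild type against the mean signal of both arrays (log scale, arbitrary units) for the 8133 measured genes (grey) and the 8 granule genes (red), with dashed lines at 2-fold and dotted lines at 1.5-fold. The 4 granins lie between -0.23 and -0.14, Ptprn at -0.45 and Resp18 at 0.46, all inside the 1.5-fold lines.

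Ptprn, whose product spans the granule membrane and whose cleaved tail can signal to the nucleus, had the lowest ratio of the members. Its probe set, 1416588_at, went from 558.8 to 409.9, a log2 ratio of -0.45. That is more than the 0.19 SD of probe sets of its brightness, and 5.61% of measured genes had a lower ratio. Of all measured genes, 14.5% lay further from 0 than Ptprn in either direction. Ptprn2, its paralogue, had signals of 44.1 and 46.2 on 1425724_at, a log2 ratio of 0.07. Both signals were 1.11 and 1.16 times the floor, so the probe set gives little information on Ptprn2 in either library.

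Resp18 had the highest ratio of the members and the one furthest from 0. Its probe set, 1417988_at, went from 3100.9 to 4266.4, a log2 ratio of 0.46. Of the measured genes, 91.6% had a lower ratio, and 5.28% of the 814 brightest lay further from 0. Resp18 was thus above the 95th percentile of those bright genes. Scgn, whose product binds SNARE proteins in a calcium-dependent way, went from 2030.2 to 2216.4 on 1451534_at, a log2 ratio of 0.13 that is within the 0.13 SD of bright probe sets.

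Resp18 and Ptprn, which encode related luminal domains, are next to each other on chromosome 1 in RefSeq's annotation of GRCm38.p6, on the same strand and with no protein-coding gene between them. Their log2 ratios, the highest and the lowest of the members, differed by 0.91. The SD for the difference between 2 probe sets of 1 gene was 0.36. That SD allows neither for a pair at the ends of the group nor for the spread between genes. Over all measured genes the 5th and 95th percentiles of the log2 ratio were -0.47 and 0.55. The outer neighbours, named after their values were seen, did not share one direction either. Dnajb2, a cytosolic co-chaperone gene beside Ptprn, went from 206.7 to 302.7 (log2 0.55). Dnpep, the aspartyl aminopeptidase gene beside Resp18, went from 1375.5 to 1240.1 (log2 -0.15). Along this stretch of 4 genes the ratios therefore alternated in sign.

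The promoters of several granin genes are known to carry a cAMP response element, the DNA site of CREB and related factors including ATF family members, so the 250 bases upstream of each RefSeq start were searched for it after the ratios were known. The letters were TGACGTCA for the full element, which reads the same on both strands, and TGACG on either strand for its half-site, which the full element holds on each strand. The windows below are the last 120 bases before the start on the gene's own strand (RefSeq, GRCm38.p6), with half-sites in capitals, shown because the 4 granins had similar ratios and Ptprn and Resp18 opposite ones. They lie at chr12:102554821-102554940 (plus strand) for Chga, chr2:132781522-132781641 (plus) for Chgb, chr1:79440027-79440146 (minus) for Scg2, chr9:75684057-75684176 (minus) for Scg3, chr1:75264209-75264328 (minus) for the first of 2 windows of Ptprn, and chr1:75278416-75278535 (minus) for Resp18.
Chga: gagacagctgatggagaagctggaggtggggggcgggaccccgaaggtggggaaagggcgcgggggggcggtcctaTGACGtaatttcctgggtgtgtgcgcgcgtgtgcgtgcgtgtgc
Chgb: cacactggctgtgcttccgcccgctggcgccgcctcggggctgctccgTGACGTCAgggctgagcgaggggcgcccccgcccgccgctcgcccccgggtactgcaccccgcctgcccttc
Scg2: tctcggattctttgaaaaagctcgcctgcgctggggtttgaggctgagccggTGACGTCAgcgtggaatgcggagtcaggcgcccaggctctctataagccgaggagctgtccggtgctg
Scg3: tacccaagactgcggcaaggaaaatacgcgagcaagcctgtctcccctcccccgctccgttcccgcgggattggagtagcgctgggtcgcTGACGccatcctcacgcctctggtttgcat
Ptprn: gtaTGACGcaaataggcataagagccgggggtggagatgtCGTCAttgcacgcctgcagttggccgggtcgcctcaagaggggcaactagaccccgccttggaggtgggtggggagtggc
Resp18: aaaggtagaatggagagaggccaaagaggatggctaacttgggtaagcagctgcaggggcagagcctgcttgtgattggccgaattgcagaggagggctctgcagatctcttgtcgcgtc

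Chgb held the full element from 72 to 65 bases upstream of its start, and Scg2 held it from 68 to 61 bases upstream. The full element was held by 3.12% of the 6606 measured genes with a window, and by 1.55% of all 32851 windows in the RefSeq table. Chga had a half-site 44 to 40 bases upstream, Scg3 had one 30 to 26 bases upstream, and Ptprn had 2, starting 117 and 80 bases upstream, in 1 of its 2 windows. The windows of Resp18, Ptprn2 and Scgn held neither sequence in their 250 bases. Half-sites were thus present in 5 of the 8 members measured, against 31.4% of the 6606 measured genes and 17.8% of all windows. These 5 also had ratios below 0, but the sequence was chosen with the ratios known, so this overlap is no test. Among the members without a half-site, Ptprn2 was close to the floor and Scgn, at 0.13, was within the SD of bright probe sets. Across measured genes the medians by half-site were close, with a log2 ratio of 0.01 in 2077 genes with one and 0.04 in 4529 without. Ratios below 0 made up 49.1% of the genes with a half-site and 43.9% of those without. Genes with the full element had a median of -0.02 (206 genes), against 0.03 in 6400 without. Of these, 52.9% with the element and 45.3% without it were below 0, a difference that was not tested. A match of letters is a description and no evidence that a factor binds there.

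Other genes of the regulated secretory pathway were read from lists that also hold the partners of these proteins. Genes for prohormone processing and for proteases of the Golgi and lysosome were mostly above 0. Of 9 measured members, 8 were above 0 and 1 below, where 45.1% of all measured genes were below. Their median log2 ratio was 0.30. Of these, 1 was at least 1.5-fold higher and 1 at least 1.5-fold lower, where 4.19% and 2.95% of all measured genes were. Furin, the convertase of the trans-Golgi network, went from 128.4 to 197.4 (1.54-fold higher), and Pcsk1, the convertase of proinsulin, from 919.8 to 332.6. Scg5 (the chaperone 7B2) and Pcsk1n (proSAAS), which are often counted with the granins and were named once their values were known, had log2 ratios of 0.12 and 0.37. They lay on the other side of 0 from the 4 granins, but Scg5 was within the 0.13 SD of probe sets above 1000. Pam, the enzyme that amidates peptides and also a granule membrane protein, went from 239.8 to 345.3 (log2 0.53, named after its value was seen).

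Of 10 measured genes for peptide cargo of granules in several islet cell types, 7 were above 0 and 3 below, where 45.1% of all measured genes were below. Their median log2 ratio was 0.09. That median was -0.07 when the next brightest probe set stood for each gene that has one. Ghrl (ghrelin) went from 1461.3 to 2503.4 and Gal (galanin) from 93.1 to 145.8, the 2 genes at least 1.5-fold higher, where 4.19% of all measured genes were. Npy, from 1027.0 to 304.8, was the 1 gene that far lower, where 2.95% were. Ins2 had a log2 ratio of 0.12, Gcg of 0.01 and Iapp of -0.13, with -0.18 to 0.11 on the other probe sets of Iapp (named after their values were seen). These hormone signals were near the top of the array, where a difference can be compressed.

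Granule membrane, biogenesis and docking genes had a median log2 ratio of -0.14 over 22 measured genes, with 14 below 0, against 45.1% of all measured genes. At least 1.5-fold lower were 4 of them and higher 1, where 2.95% and 4.19% of all measured genes were. Sytl4 (granuphilin), which tethers insulin granules at the plasma membrane, went from 691.9 to 278.3. Bace2, a protease of the beta cell surface, went from 700.0 to 370.5, but its other 2 measured probe sets gave log2 ratios of -0.38 and 0.29. Vamp2, the granule SNARE, went from 200.6 to 125.6 (1.60-fold lower), and Slc18a1, the vesicular monoamine transporter, from 73.9 to 46.6 (1.59-fold lower). The knockout signal of Slc18a1 was close to the floor of 39.8. Dnm1 (dynamin), from 62.1 to 100.7, was the 1 gene at least 1.5-fold higher. Ica1, an islet autoantigen of granule maturation named after its value was seen, had a log2 ratio of -0.08, while its dimmer probe set gave 0.14.

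**Figure D3:**
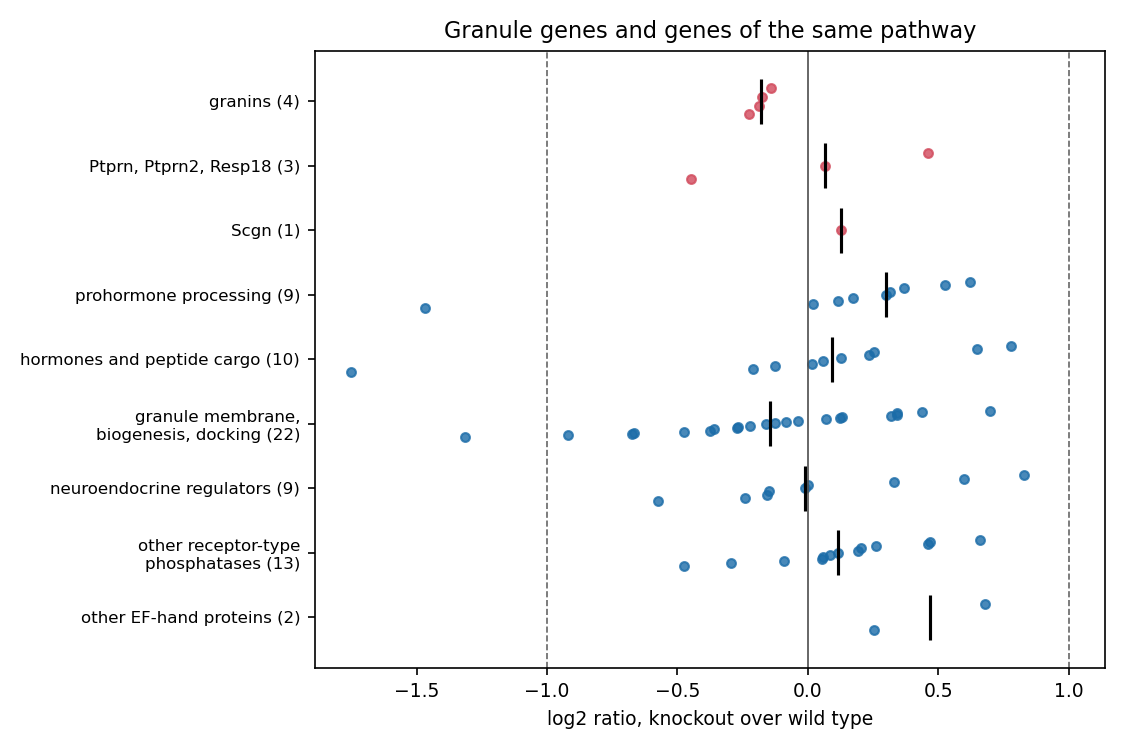
The log2 ratio of knockout over wild type for each measured gene of the granule group (red) and of related lists (blue), with the number of measured genes in brackets, the list median as a black bar and dashed lines at 2-fold. The 4 granins lie between -0.23 and -0.14, but the lists differ in size and brightness, so their widths cannot be compared. The medians run from -0.18 for granins to 0.47 for the 2 EF-hand genes.

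The relatives of Ptprn were mostly above 0. Of 13 measured receptor-type tyrosine phosphatases, 10 were above 0 and 3 below, where 45.1% of all measured genes were below. Their median log2 ratio was 0.11, against 0.03 over all measured genes. Ptpru, from 63.9 to 101.0, was the 1 gene at least 1.5-fold apart, where 7.14% of all measured genes were. Ptprf, the brightest, had a log2 ratio of 0.09. Ptprr, at -0.47 (98.7 to 71.1), was the 1 member lower than Ptprn, named after its value was seen. Of the other EF-hand calcium-binding proteins only Calb1 (calbindin, 201.9 to 323.4) and Necab2 (log2 0.25) were measured, and 5 more were at the floor on both arrays. Among 65 measured genes of the related lists, the 3 with a ratio nearest to that of Resp18 were Ptpro (0.46), Ptprz1 (0.47) and Cadps2 (0.44), a likeness that rests on 1 ratio between 2 arrays. Their signals were between 43.7 and 76.3, close to the floor.

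Granins are made by every islet endocrine cell type and by neurons, so marker lists of the cells in both preparations are given beside these values. Of all measured genes, 45.1% were below 0, and each count of markers is to be read against that share. Beta cell markers were below 0 for 7 of 8 measured genes (summed signal 18616 in wild-type and 16172 in knockout islets). Alpha cell markers were above 0 for 5 of 5 (14264 and 14679), and markers of delta, PP and epsilon cells for 4 of 4 (13992 and 16583). Neuronal markers were above 0 for 7 of 9 measured genes (summed signal 1628 and 2156), with Stmn2 from 459.7 to 731.4, while Th and Dbh of noradrenergic neurons had log2 ratios of -0.26 and -0.30. Of the Schwann cell markers matched, only Sox10 was measured (114.1 and 111.0), and 3 were at the floor. Myeloid markers were above 0 for 10 of 10 measured genes (1265 and 3546). Acinar markers were bright in both libraries (36830 and 38477, 7 of 10 above 0). Duct markers were above 0 for 4 of 7 (6061 and 6801), endothelial markers for 4 of 10 (4118 and 3909) and mesenchymal markers for 4 of 10 (12086 and 11800). With lists this short, the acinar, duct, endothelial and mesenchymal counts were near the share over all measured genes. No marker was listed at 0. The part of these differences in the ratios of the granule genes was not tested.

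**Figure D4:**
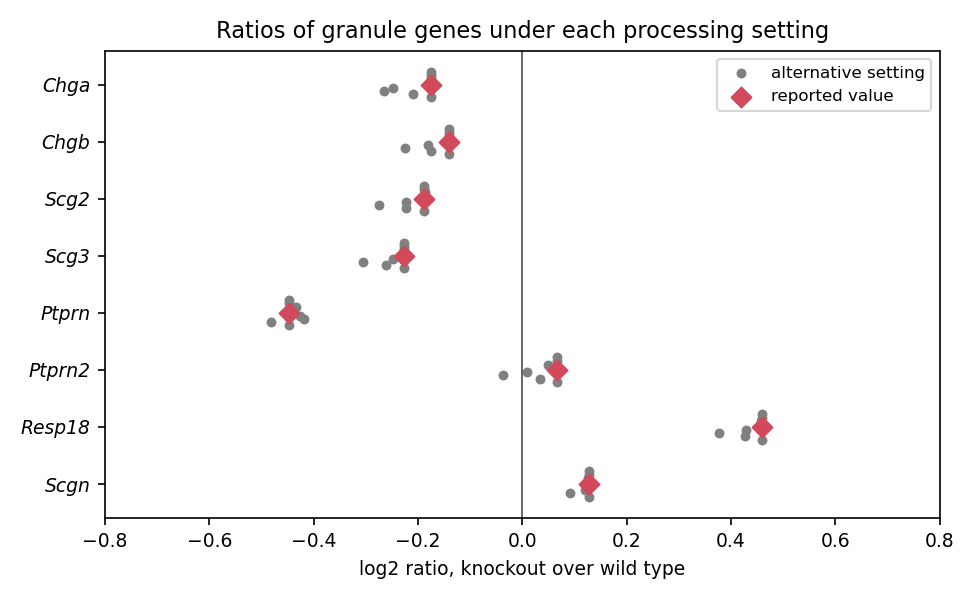
The log2 ratio of knockout over wild type of each granule gene as reported (diamonds) and under each alternative processing setting that gave a value (grey points). Each of the 4 granins and Ptprn stays below 0 and Resp18 and Scgn above it, while Ptprn2 runs from -0.04 to 0.07. Settings of the floor and of the choice of probe set could not move the plotted ratios.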

How the data were processed

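Islet RNA was hybridised as biotin-labelled cRNA to Affymetrix mouse 430A arrays, 1 per genotype, per the labels' protocols. The authors deposited a linear signal intensity for each of 22690 probe sets. GCOS 1.02 is the tool named in the submitters' processing notes. For background correction, summary method, detection calls and pooling, nothing is given in the sources used here. As deposited, both arrays had a mean of 150.1 after trimming 2% at each end, and they were set to it again (Python 3.11.15, pandas 2.3.3). Signals under the 40th percentile were raised to it and log2 ratios taken. Probe sets were named from GEO's platform annotation: 20380 had 1 symbol, 691 several, 1555 none, and 64 were controls. In RefSeq's annotation of GRCm38.p6, 20351 matched and 0 symbols changed. The brightest probe set represented a gene. The number of arrays limits the precision.

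The members and lists were chosen with earlier results of these data known. Named genes were all members, Eif2ak3, up to 4 genes per direction at least 1.5-fold apart in each related list (the 2 brightest where fewer than 2 were), and the 3 genes nearest in ratio to the member furthest from 0. The procedure was tested on simulated data. Alternatives covered scaling, floor, pseudocount and choice of probe set. Upstream windows were available for 8 members.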

Additional observations from a re-analysis of the deposited data

How the results depend on the processing

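The ratios of Chga, Chgb, Scg2, Scg3, Ptprn, Resp18 and Scgn kept their sign under each of the 9 alternatives that gave a value. They ranged from -0.27 to -0.18 for Chga, -0.23 to -0.14 for Chgb, -0.27 to -0.19 for Scg2, -0.31 to -0.23 for Scg3, -0.48 to -0.42 for Ptprn, 0.38 to 0.46 for Resp18 and 0.09 to 0.13 for Scgn. The deposited scale, the other floors and the choice of probe set left these ratios as reported. Such settings could not move them, as these genes have 1 probe set each, signals above every floor and arrays already on 1 scale. Only median centring, quantile and loess normalisation and the pseudocount changed the ratios, so the kept signs rest on those settings. Ptprn2 turned to -0.04 with quantile normalisation and had no value with the floor at the 60th percentile. The count of members 2-fold or 1.5-fold apart was 0 throughout, and the median of the members ran from -0.25 to -0.16. The setting with the next brightest probe set could not be applied to the members, which have 1 each. Medians of related lists moved in 8 cases by more than the probe set SD over the square root of the list's size, and the cause was not tested. With the floor at the 25th percentile the other phosphatases had a median of 0.19 and the EF-hand genes of 0.17. With a pseudocount of 16 in place of the floor, granule membrane genes had -0.083 and EF-hand genes 0.047. With the median over probe sets the other phosphatases had 0.20. With the next brightest probe set, peptide cargo had -0.067, neuroendocrine regulators 0.19 and other phosphatases 0.34. No paired analysis was possible because there was 1 array per genotype, and no replicate could be left out.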

Other observations

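Of 9 measured transcription factors of the neuroendocrine program, which control granule genes, 5 were below 0 and 4 above, where 45.1% of all measured genes were below. Their median log2 ratio was -0.01. That median was 0.19 with the next brightest probe set of each gene. Myt1, a zinc finger factor of endocrine progenitors, went from 114.6 to 203.7 (1.78-fold higher), and Neurog3, the factor that starts endocrine differentiation, from 109.8 to 166.4 (1.52-fold higher). These were the 2 genes at least 1.5-fold higher, where 4.19% of all measured genes were. None was 1.5-fold lower, where 2.95% were, and with 9 genes a count of 0 is near that share. Insm1, a zinc finger factor needed for granule gene expression and named after its value was seen, had the lowest ratio, from 998.3 to 670.6 (log2 -0.57). Rest, the repressor of neuronal and granule genes, had signals of 73.0 and 73.1 (named after its value was seen).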
